A study of Mus musculus with 6 samples.

Results

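The genes of autophagy were compared between megakaryocyte progenitors (MkP) of fetal liver and of adult bone marrow. The set was fixed as a list of 38 gene symbols of the core autophagy machinery, its cargo receptors and its regulators, each represented by its brightest probe set over the 6 arrays. Of the 38, 36 were measured, among 11625 genes measured in all. Optn was not analysed here because no probe set carried its symbol in the annotation used. Bnip3l was left out because its 3 probe sets also carried the symbol of a related pseudogene. The 36 measured genes all passed the filter on dim probe sets, and 35 of them were above background, the highest signal among the bacterial control probe sets, on all 6 arrays. Atg16l2, a homologue of Atg16l1, was above background on 2 of 3 bone marrow arrays and 1 of 3 fetal liver arrays.

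All samples came from wild-type mice of the C57BL/6 strain, without any treatment. Adult marrow was taken at 12 to 18 weeks of age (3 arrays) and fetal liver at E13.5, in mid-gestation, (3 arrays). In both tissues the cells were sorted as lineage-negative, Sca-1-negative, KIT-positive, CD150-positive and CD41-positive. The labels number the samples as biological replicates but do not say how many animals or embryos each contains, so the p-values measure the spread between these samples.

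Autophagy encloses cytoplasm in a double-membraned vesicle, the autophagosome, and delivers it to the lysosome for degradation. The ULK1 kinase complex starts the process, a lipid kinase complex around Beclin 1 marks the forming membrane, and a pair of ubiquitin-like conjugation systems attach proteins of the ATG8 family (LC3 and GABARAP) to it, where cargo receptors dock. Much of the pathway is controlled after transcription, by mTORC1 and AMPK, and in blood development it is known for clearing mitochondria from maturing red cells and for its roles in stem cells and platelets.

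Signals are MAS5 probe set intensities, deposited by the authors, and their trimmed mean was 500 on every array. The highest bacterial control signal lay between 22.2 and 35.1. Of 13 markers of MkP, 11 were measured and 0 differed past the threshold used here, a limma p of 0.05 after Benjamini-Hochberg adjustment over all genes, which 7.77% of all genes passed. That does not make them equal. Without overlap between the tissues, Itga2b and Pf4 were higher in marrow, and Gata1, Itgb3 and Gp9 in fetal liver. Such a lack of overlap was seen for 28% of all genes. The summed signal of 11 granulocyte and monocyte markers was 44545 to 70731 in marrow and 4781 to 6910 in fetal liver, where Ltf and Fcnb were not above background. That of 9 erythroid markers was 3586 to 8201 in marrow, where the embryonic globins Hbb-y and Hbb-bh1 were not above background, and 11130 to 24358 in fetal liver. Past the threshold, 4 of the 9 were higher in fetal liver. The bright Ermap and Slc4a1 overlapped between the tissues and were not called (limma adjusted p = 0.108 and 0.349). Of 10 macrophage markers, Adgre1, C1qa, C1qc and Marco were below the filter. The 6 measured summed to 1909 to 3529 in marrow and 309 to 452 in fetal liver, where Cd163 was not above background. Much of this was Csf1r, at 1028, 1869 and 2131 in marrow and 123, 249 and 213 in fetal liver. Past the threshold, 3 of the 6 were higher in marrow. Cd68, C1qb and Mrc1 overlapped between the tissues and were not called (limma adjusted p = 0.36, 0.346 and 0.39). Most of the sum of 7 markers of mast cells, basophils and eosinophils was Gata2, which MkP also express. The other 6 summed to 1449 to 2918 in marrow and 141 to 455 in fetal liver, where Prg2 and Mcpt8 were not above background. The 5 hepatocyte markers summed to 223 to 624 in marrow and to 823, 3644 and 605 in fetal liver replicates 1, 2 and 3. Of 10 lymphoid markers, 6 were below the filter. The 3 measured summed to 394 to 710 in marrow and 303 to 423 in fetal liver. Dntt was higher in marrow past the threshold and not above background in fetal liver. Cd79b (mean 274 in marrow and 311 in fetal liver) and Cd8a overlapped between the tissues and were not called. The part of these cells in the results was not tested. In sorted bulk RNA, fewer cells of a type and less RNA per cell cannot be told apart.

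None of the measured autophagy genes was called different between fetal liver and bone marrow MkP. In limma 0 of 36 passed the threshold in either direction, against 3.01% of all genes that were higher in fetal liver and 4.76% that were higher in marrow (350 and 553 genes, which became 897 and 438 under median centring). With each probe set tested singly, 0 of their 72 above the filter passed, against 5.06% of all probe sets (1.78% higher in fetal liver and 3.28% in marrow). At an unadjusted p under 0.05 stood 3 of the 36 (8.33%), Sqstm1, Pink1 and Rb1cc1, against 22.7% of all genes. The largest changes among the 36 were 0.82 (Sqstm1) and -0.78 (Tfeb and Pink1) on the log2 scale, always given as fetal liver minus bone marrow. By brightest probe set, a log2 change of at least 1, or 2-fold, was seen for 0 of the 36 and for 17.8% of all genes. Dimmer probe sets above the filter lay beyond 1 for Ambra1 (1.13) and Atg3 (1.06). Others lay beyond -1 for Ulk2 (-1.54), Map1lc3b (-1.44), Atg12 (-1.39), Map1lc3a (-1.22) and Sqstm1 (-1.16).

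The changes were small in both directions. Of the 36 genes 15 had a positive and 21 a negative change, with a median of -0.16 against 0.01 over all genes; under median centring, which moved the median of all genes to 0.26, the median of the autophagy genes was 0.10. The median size of the change, without its sign, was 0.32 (quartiles 0.16 and 0.52) for the autophagy genes and 0.42 (quartiles 0.19 and 0.81) for all genes. The median standard error (SE) of the change was 0.38 in both. The 3 signals of one tissue lay entirely above those of the other for 4 of the 36 genes (11.1%), against 28% of all genes. These were Sqstm1, higher in fetal liver, and Rb1cc1, Uvrag and Tfeb, higher in marrow.

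**Figure D1:**
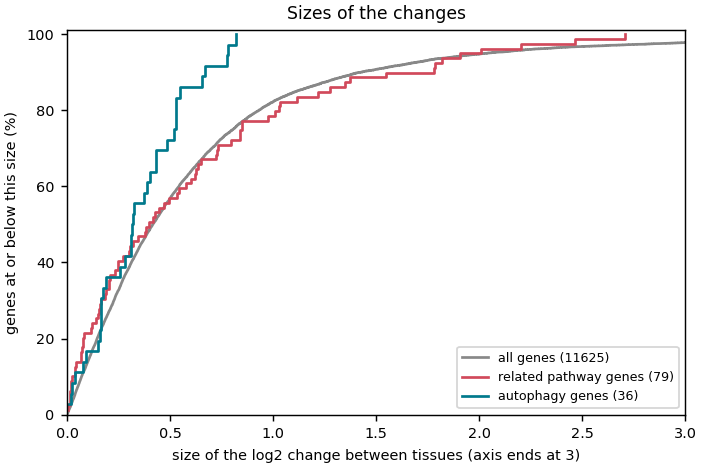
The share of genes (y axis, percent) whose log2 change between tissues is at or below a given size (x axis, without its sign), for the 36 autophagy genes, 79 related pathway genes and all 11625 genes. The line of the autophagy genes reaches its top at 0.82, while 17.8% of all genes lie at 1 or beyond.

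A missing call is not evidence of equal levels, and the precision differed between the genes. The 95% interval of the change lay wholly between -1 and 1 for 12 of the 36 genes (33.3%, against 30.9% of all genes). This bound, under 2-fold, holds for the probe set used and the scaling of the authors. These 12 were Atg101, Pik3c3, Becn1, Uvrag, Atg2b, Atg3, Atg12, Map1lc3b, Gabarap, Gabarapl1, Nbr1 and Fundc1. Of the 12, 8 had a further probe set above the filter, and in all 8 the interval of at least 1 of these reached past -1 or 1. For the other 24 genes a 2-fold difference lay within the interval. The widest intervals belonged to Atg16l2 (-2.07 to 1.01), Atg14 (-0.88 to 1.98) and Atg13 (-1.61 to 1.10).

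**Figure D2:**
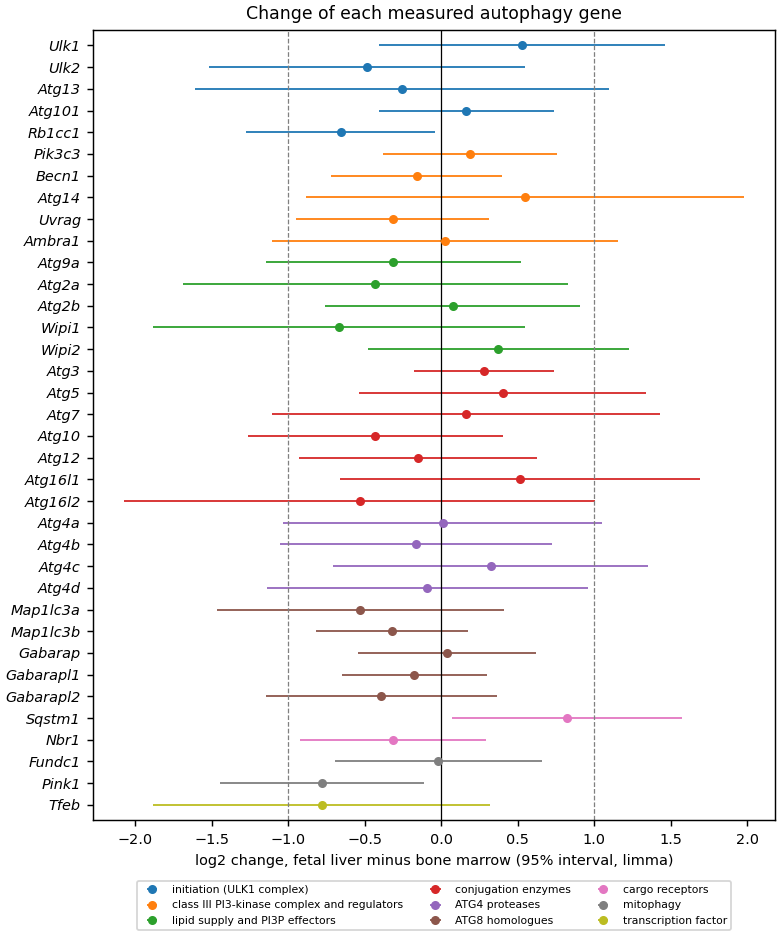
The log2 change of each measured autophagy gene (x axis, fetal liver minus bone marrow), with points coloured by role and bars for the 95% interval of the limma fit; dashed lines mark -1 and 1. The bars of Rb1cc1, Pink1 and Sqstm1 do not reach 0, and 0 of the 36 points lie outside the dashed lines.

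The ULK1 complex, which starts autophagosome formation, held 5 genes, of which 0 were called (median change -0.26). Rb1cc1 encodes FIP200, the scaffold of the complex. It had signals of 1121, 1228 and 1038 in marrow and 930, 547 and 715 in fetal liver. Every marrow array was higher than every fetal liver array, and the change was -0.66 ± 0.28 (SE, limma adjusted p = 0.192). A further Rb1cc1 probe set had a change of -0.53. The kinase gene Ulk1 (0.53 ± 0.42) and its homologue Ulk2 (-0.49 ± 0.47) had changes of opposite sign, and neither was called (adjusted p = 0.511 and 0.599). Ulk2 had 3 probe sets above the filter, all with a negative change. On one of the 2 that were not the brightest, the signals were 318, 469 and 384 in marrow and 80.6, 194 and 142 in fetal liver. The tissues did not overlap there, and its change of -1.54 ± 0.45 did not pass when all 27022 probe sets above the filter were tested singly (limma adjusted p = 0.0782); the remaining one had a change of -0.23. Atg101 (0.16 ± 0.26) and Atg13 (-0.26 ± 0.61), which encode the stabilising partners of the complex, completed the group. A second Atg13 probe set above the filter had a change of opposite sign (0.90 ± 0.71).

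The lipid kinase complex makes the phosphoinositide that marks the forming membrane. Its 5 genes had changes between -0.32 and 0.55, and 0 were called. Becn1, which encodes Beclin 1, had signals of 3445, 2602 and 1818 in marrow and 2457, 2365 and 2014 in fetal liver. The fetal liver signals lay inside the range of the marrow signals, with a change of -0.16 ± 0.25 (adjusted p = 0.772) and an interval of -0.72 to 0.40. The direction of so small a change was not stable, and median centring gave 0.09. Pik3c3, the catalytic subunit VPS34, had a change of 0.19 ± 0.26 and Atg14, the subunit that directs the complex to autophagosomes, 0.55 ± 0.65. Uvrag, which takes the place of ATG14 in a complex on endosomes, had signals of 686, 735 and 556 in marrow and 524, 535 and 517 in fetal liver. The tissues did not overlap, but the change was only -0.32 ± 0.28 (adjusted p = 0.567). Ambra1, a regulator of Beclin 1, was at 0.03 ± 0.51.

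**Figure D3:**
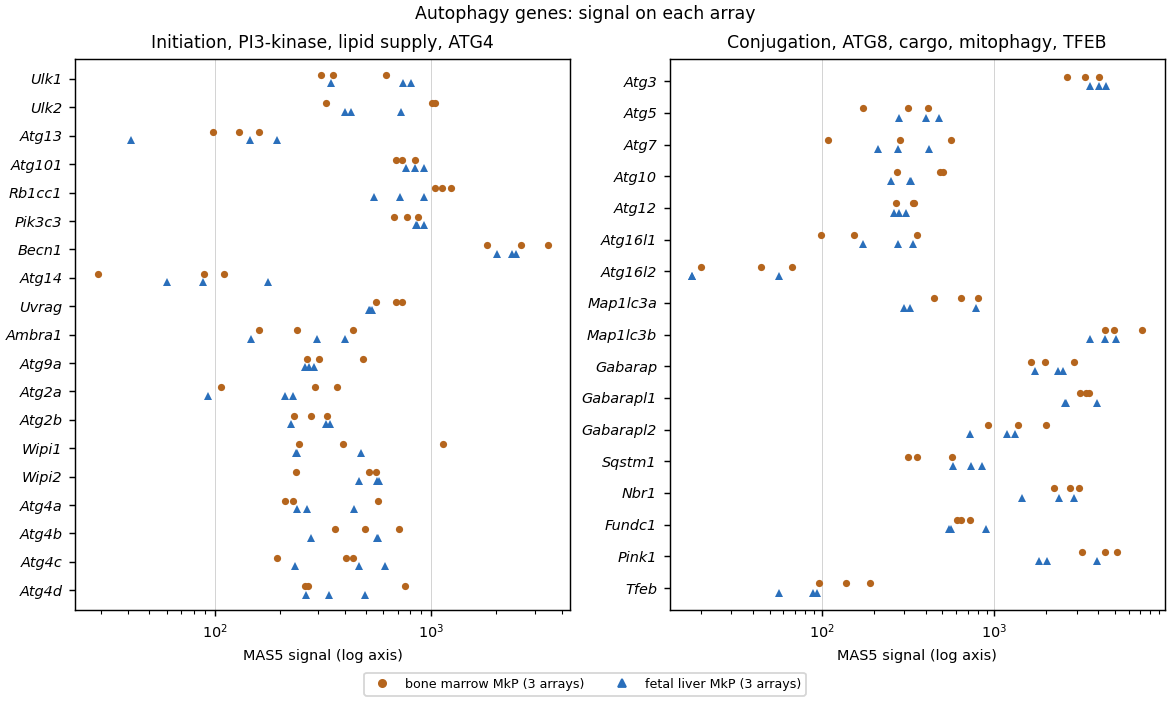
MAS5 signal of each measured autophagy gene (x axis, logarithmic) on the 3 bone marrow arrays (circles) and the 3 fetal liver arrays (triangles), with the genes grouped by role. The tissues overlap for all genes but Rb1cc1, Uvrag and Tfeb, where the circles lie higher, and Sqstm1, where the triangles do.

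The lipid transfer proteins ATG2, the scramblase ATG9 and the WIPI proteins, which read the phosphoinositide mark, help the membrane grow. Of their 5 genes 0 were called, with changes between -0.67 (Wipi1) and 0.37 (Wipi2). Wipi2, whose product recruits the conjugation machinery, had signals of 239, 554 and 517 in marrow and 576, 563 and 462 in fetal liver. Marrow replicate 1 was low and the other 5 arrays lay close together, and the change was 0.37 ± 0.39 (adjusted p = 0.631). Without marrow replicate 1 it was -0.01. Wipi1 had 1 high array, marrow replicate 2 with a signal of 1132, against 237 to 473 on the other 5, and its change of -0.67 ± 0.55 was not called (adjusted p = 0.528). Atg9a (-0.31 ± 0.38), Atg2a (-0.43 ± 0.57) and Atg2b (0.08 ± 0.38) had overlapping signals.

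The conjugation enzymes attach ATG12 to ATG5 and the ATG8 proteins to lipid. Of 7 genes 0 were called, and their changes lay between -0.53 (Atg16l2) and 0.52 (Atg16l1). Atg3, the E2-like enzyme that passes ATG8 proteins to lipid, had signals of 4002, 2640 and 3338 in marrow and 4444, 3561 and 4016 in fetal liver. The 2 higher fetal liver arrays exceeded all marrow arrays and the third did not, and the change was 0.28 ± 0.21 (adjusted p = 0.468; interval -0.17 to 0.74). Atg7, the E1-like enzyme of both conjugation systems, ranged from 109 to 557 within marrow alone, and its change was 0.16 ± 0.57 (adjusted p = 0.91). Atg5 (0.40 ± 0.42) and Atg10, the E2-like enzyme of ATG12 (-0.43 ± 0.38), were not called either. Atg12 showed how a gene's value can turn on its probe set. The brightest one gave 342, 270 and 337 in marrow against 309, 261 and 282 in fetal liver, or -0.15 ± 0.35. A second gave 461, 305 and 374 in marrow and 75.2, 240 and 155 in fetal liver. There the tissues did not overlap, and the change was -1.39 ± 0.49 without passing the threshold over all probe sets (adjusted p = 0.135).

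The ATG4 proteases trim the ATG8 proteins before conjugation and release them from membranes later. Their 4 genes had changes between -0.17 and 0.32 with 0 called. Atg4b, the protease of broadest activity, had signals of 495, 360 and 708 in marrow and 278, 564 and 569 in fetal liver, which overlapped widely (-0.17 ± 0.40, adjusted p = 0.859). Its sign turned under median centring (0.09). Atg4a, Atg4c and Atg4d had changes of 0.01, 0.32 and -0.09, each with an SE of 0.47.

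The ATG8 homologues are the proteins that coat the autophagosome and bind cargo receptors. Of these 5 genes, 4 had a negative change and 0 were called. Map1lc3b encodes LC3B, the usual marker of autophagosomes. Its signals were 7156, 4392 and 4899 in marrow and 5048, 3574 and 4392 in fetal liver. The ranges overlapped, and the change was -0.32 ± 0.22 (adjusted p = 0.449), with an interval of -0.82 to 0.18. Its 3 further probe sets above the filter all had a negative change too, between -1.44 and -0.24. Map1lc3a, which encodes LC3A, had signals of 799, 644 and 447 in marrow and 781, 325 and 300 in fetal liver. Fetal liver replicate 1 lay among the marrow arrays and the other 2 below them, giving -0.53 ± 0.42 (adjusted p = 0.515). This probe set is of a type prone to cross-hybridisation; the other one of the gene had a change of -1.22 ± 0.56 (adjusted p = 0.256 over all probe sets).

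The GABARAP branch of the family acts later, as the autophagosome closes and fuses. Gabarap had signals of 1630, 1953 and 2888 in marrow and 1715, 2487 and 2339 in fetal liver, which all lay inside the marrow range, and a change of 0.04 ± 0.26 (adjusted p = 0.956; -0.01 under quantile normalization). Gabarapl1 had 3527, 3393 and 3123 in marrow and 3900, 2562 and 2603 in fetal liver. Here fetal liver replicate 1 was the highest array and the other 2 the lowest, and the change was -0.17 ± 0.21 (adjusted p = 0.696; 0.08 under median centring). Gabarapl2 had 1373, 912 and 1994 in marrow against 719, 1307 and 1178 in fetal liver, which overlapped, with -0.39 ± 0.34 (adjusted p = 0.554). The interval of Gabarapl2 reached -1.14. Members of the family are similar in sequence, and the probe set of Gabarapl1 is of a type that can match several genes. The other probe set of Gabarapl1 had a change of -0.57 with an interval of -1.24 to 0.10.

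Among the cargo receptors, Sqstm1 and Nbr1 had changes of opposite sign. Sqstm1 encodes p62, which carries ubiquitinated cargo into autophagosomes and is itself degraded there. Its signals were 565, 357 and 315 in marrow and 576, 729 and 843 in fetal liver. The tissues did not overlap, though marrow replicate 1 and fetal liver replicate 1 were nearly equal. The change was 0.82 ± 0.34 (adjusted p = 0.179), and it lay between 0.65 and 1.07 when each array was left out in turn. A second, dimmer Sqstm1 probe set went the other way, with 43.9, 234 and 205 in marrow against 74.5, 72.1 and 32.5 in fetal liver (-1.16 ± 0.71, adjusted p = 0.404 over all probe sets). With the mean of both probe sets the change was -0.17 (adjusted p = 0.823), so that its direction rests on the choice of probe set. Nbr1, a receptor related to p62, had signals of 2754, 3084 and 2220 in marrow and 2885, 1436 and 2371 in fetal liver, which overlapped (-0.31 ± 0.27, adjusted p = 0.557).

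Pink1 encodes the kinase that marks damaged mitochondria for removal. It had signals of 4368, 5099 and 3223 in marrow and 3914, 1801 and 2015 in fetal liver. Fetal liver replicate 1 lay within the marrow range and the other 2 fetal liver arrays lay below it. The change was -0.78 ± 0.30 with an interval of -1.44 to -0.11 (adjusted p = 0.151). A second Pink1 probe set gave nearly the same, at 3845, 5307 and 3089 in marrow against 3819, 1798 and 1707 in fetal liver (-0.81 ± 0.32, adjusted p = 0.19 over all probe sets). Without fetal liver replicate 1 the change was -1.12 ± 0.24 and passed the threshold (limma adjusted p = 0.0304; 0.0304 to 0.43 over all alternatives), the only call of an autophagy gene in any fit. Fundc1, a mitophagy receptor of the outer membrane, had signals of 725, 638 and 610 in marrow and 894, 561 and 543 in fetal liver, with fetal liver replicate 1 again highest (-0.02 ± 0.30, adjusted p = 0.983).

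Fetal liver replicate 1 also stood apart from fetal liver replicates 2 and 3 in the ratio of 5' to 3' signal of Gapdh. This control falls where RNA is degraded or labelled short. The same ratio of a second control, Actb, differed less, at 1.08, 1.13 and 1.06 in marrow and 0.89, 1.02 and 0.97 in fetal liver. That of Gapdh was 0.099, 0.177 and 0.303 in marrow replicates 1, 2 and 3, and 0.109, 0.449 and 0.432 in fetal liver replicates 1, 2 and 3. Fetal liver replicate 1 thus lay inside the marrow range. The arrays with the highest ratios, fetal liver replicates 2 and 3, had the lowest signals of Pink1 and Map1lc3a. On the second Map1lc3a probe set this order was not seen, as fetal liver replicate 1 (140) lay below fetal liver replicate 2 (315). In a fit with the log2 of this ratio as a covariate, chosen after the values were seen, the slope was -0.43 ± 0.12 for Pink1 and -0.61 ± 0.17 for Map1lc3a (SE, limma adjusted p = 0.161 and 0.174 over all genes), and 0 of 36 autophagy genes and 0.043% of all genes passed for the slope. At an unadjusted p under 0.05 stood 6 of 36 (16.7%), against 13.2% of all genes. Their slopes went both ways, negative for Pink1, Map1lc3a and Gabarapl1 (-0.23) and positive for Atg13 (0.80), Atg2a (0.76) and Gabarap (0.33). In the same fit the change between tissues was -0.49 ± 0.20 for Pink1 (adjusted p = 0.183), -0.13 ± 0.30 for Map1lc3a and 0.84 ± 0.36 for Sqstm1 (adjusted p = 0.201). For Pink1 and Map1lc3a the log2 change was smaller in size than without the covariate (-0.78 and -0.53), by over 1.5 times. For Atg13 (-0.78 against -0.26 without it) and Atg2a (-0.93 against -0.43) it was larger.

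**Figure D4:**
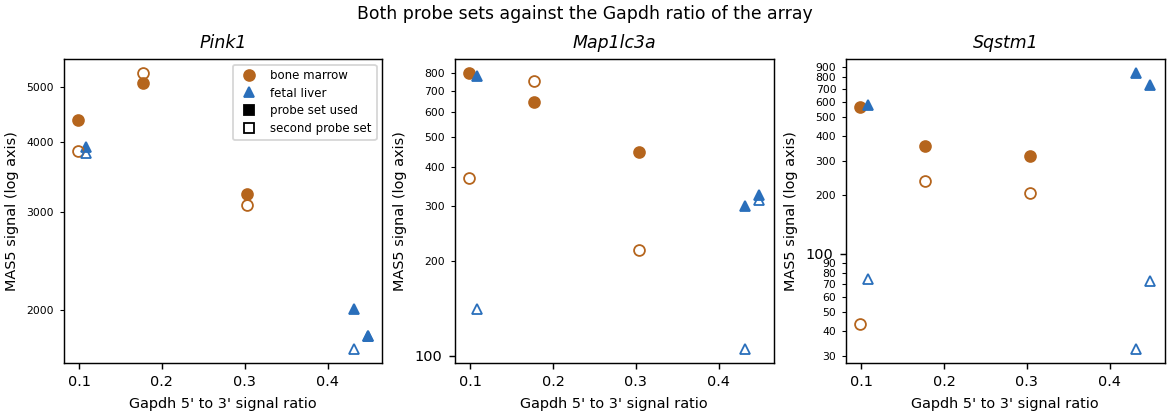
Signal (y axis, logarithmic) of Pink1, Map1lc3a and Sqstm1 against the 5' to 3' signal ratio of Gapdh (x axis) on the 6 arrays; filled symbols show the probe set used and open symbols the second probe set of the gene. The probe sets of Pink1 run together, whereas those of Sqstm1 have changes of 0.82 and -1.16, and on the second the tissues overlap through marrow replicate 1 (43.9).

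Tfeb encodes a transcription factor that turns on genes of lysosomes and autophagy. Its signals were 191, 138 and 96.2 in marrow and 94.2, 89.5 and 56.6 in fetal liver. The tissues did not overlap, but the lowest marrow array and the highest fetal liver array were almost equal. The change was -0.78 ± 0.50 and was not called (adjusted p = 0.399), with an interval of -1.88 to 0.32.

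TFEB and its relatives bind the E-box CACGTG, best when it is extended to TCACGTGA, and both motifs read the same on either strand. RefSeq promoter windows (GRCm38.p6, 250 bases before to 50 after the gene start) were found for 31 of the 38 genes. CACGTG stood in the windows of 4 of these 31 genes (12.9%), Atg3, Atg5, Atg7 and Atg14, against 8.09% of all 27025 genes with a window. TCACGTGA, which contains it, stood in 1, that of Atg3 (3.23%, against 1.12%). The motif of Atg14 lies after the gene start. The stretches before the start of the other 3 are shown because their E-box lies upstream of the start, with each CACGTG in capitals and up to 30 bases on either side.
Atg3 (chr16:45158705-45158793, plus strand): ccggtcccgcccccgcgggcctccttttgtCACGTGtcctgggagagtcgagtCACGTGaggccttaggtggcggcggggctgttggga
Atg7 (chr6:114670934-114670999, plus strand): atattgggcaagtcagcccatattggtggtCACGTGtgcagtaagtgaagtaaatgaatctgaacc
Atg5 (chr10:44268295-44268338, plus strand): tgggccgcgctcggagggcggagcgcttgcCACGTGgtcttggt
In Atg3 the motif occurs at 94 and again at 71 bases before the start, the latter within TCACGTGA. These matches are letters in a window, and binding was not measured here. The changes of the 4 genes, given above, were all positive (0.16 to 0.55) and 0 were called. This direction was not stable for Atg7 (-0.45 to 0.71 over the alternatives) and Atg14 (-0.01 to 0.90).

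A second list held 84 related genes, further regulators, receptors and membrane factors of the pathway. Of these, 79 were measured, with a median change of -0.02, and 8 were higher in marrow and 1 in fetal liver past the threshold (10.1% and 1.27%, against 4.76% and 3.01% of all genes). Of the 8 calls for marrow, 3 to 5 were made when an array was left out, and 3 without marrow replicate 1 and without fetal liver replicate 3. The summed granulocyte and monocyte markers were higher in the same marrow arrays and the summed erythroid markers in the same fetal liver arrays. The part of these markers in the calls was not tested.

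The kinase mTORC1 holds autophagy back in fed cells. Ddit4 encodes REDD1, a stress-induced inhibitor of mTORC1. Its signals were 2348, 2645 and 4203 in marrow and 315, 635 and 461 in fetal liver. All marrow arrays lay far above all fetal liver arrays, a change of -2.71 ± 0.33 or 6.53-fold (SE, limma adjusted p = 8.78e-04). It was past the threshold in every alternative run (adjusted p at most 0.0118).

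Sesn3, which encodes a sestrin that also restrains mTORC1, had 342, 239 and 270 in marrow and 49.4, 81.0 and 50.4 in fetal liver. The tissues were well apart, with a change of -2.20 ± 0.46 (adjusted p = 0.0161). Leaving out marrow replicate 1, where another probe set stood for the gene, or fetal liver replicate 3 ended the call (adjusted p = 0.0763 and 0.0728), as did averaging its probe sets (0.0979, in a range of 0.0111 to 0.0979 across alternatives). Deptor, an inhibitory subunit of mTOR complexes, had 527, 598 and 643 in marrow against 220, 261 and 275 in fetal liver, a fall of 1.22 ± 0.32 (adjusted p = 0.0469). Lamtor4, a subunit of the Ragulator complex that brings mTORC1 to lysosomes and so acts in the other direction, had 588, 963 and 539 in marrow against 307, 247 and 226 in fetal liver, with a log2 change of -1.38 ± 0.36 (adjusted p = 0.0417). Leaving out any of the 6 arrays ended the calls of Deptor and Lamtor4, and Deptor was then at -0.73 without fetal liver replicate 1, where another probe set stood for it (adjusted p up to 0.334 and 0.157 over all alternatives). Of the 24 measured genes of mTORC1 and its inputs, 4 were higher in marrow and 0 in fetal liver past the threshold. Of all genes, 4.76% and 3.01% were. The changes of the 24 were positive for 12 and negative for 12, with a median of -0.00. Other genes that restrain mTORC1 were not called, such as Tsc1 (0.04 ± 0.31), Tsc2 (-0.01 ± 0.32) and Sesn2 (-0.04 ± 0.45). Not all of them lay near 0. Sesn1, also a sestrin, was higher on every marrow array than on any fetal liver array (-1.03 ± 0.33, limma adjusted p = 0.0899). Akt1s1 (-0.62 ± 0.52) and Castor1 (-0.40 ± 0.60) had negative changes too, while Tbc1d7 of the same group went the other way (0.98 ± 0.46). Of 2 further Akt1s1 probe sets above the filter, 0 shared its negative sign. Mtor itself had a change of 0.15 ± 0.24 (adjusted p = 0.769), and among 6 measured genes of AMPK and its activator 0 were called (median 0.66). Their changes were positive for 4 and negative for 2. Prkaa1 (0.74 ± 0.40), Prkab1 (1.01 ± 0.34, limma adjusted p = 0.104) and Prkag2 (0.85 ± 0.34) were higher on every fetal liver array than on any marrow array. Of all genes, 13.8% were. Among 3 further Prkag2 probe sets above the filter, 2 shared its sign.

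**Figure D5:**
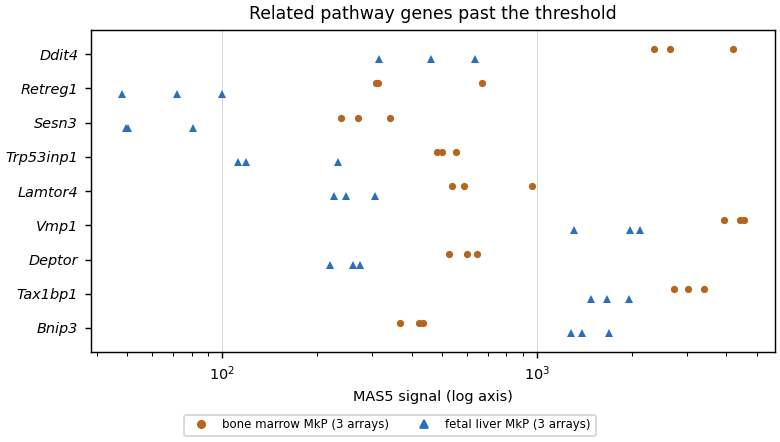
MAS5 signal (x axis, logarithmic) of the 9 related genes past the threshold on the 3 bone marrow arrays (circles) and the 3 fetal liver arrays (triangles). The circles lie above the triangles for 8 genes, most widely for Ddit4, and below them for Bnip3.

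Other receptors for selective autophagy moved both ways. Bnip3 encodes a mitophagy receptor of the outer mitochondrial membrane that is induced by low oxygen, and is the closest relative of Bnip3l. Its signals were 433, 423 and 369 in marrow and 1392, 1280 and 1689 in fetal liver. The fetal liver arrays lay well above, a change of 1.82 ± 0.27 or 3.53-fold (adjusted p = 0.00273), and this was past the threshold in every alternative run (adjusted p at most 0.0264). Retreg1, also called FAM134B, a receptor for degradation of the endoplasmic reticulum, had 308, 670 and 312 in marrow and 48.1, 99.6 and 72.0 in fetal liver. It fell by 2.47 ± 0.49 (adjusted p = 0.0136). Dropping fetal liver replicate 3 ended the call (adjusted p = 0.0518), and so did averaging its probe sets (0.0659, in a range of 0.00977 to 0.0659 across alternatives). Tax1bp1, a receptor for ubiquitinated cargo, had 3389, 2728 and 3017 in marrow and 1665, 1486 and 1962 in fetal liver. It fell by 0.84 ± 0.21 (adjusted p = 0.0351), and of the 6 arrays only marrow replicate 2 could be left out with the call kept (adjusted p = 0.0252 to 0.156 over all alternatives). Of 19 measured genes of this group, 1 was higher in fetal liver and 2 in marrow past the threshold, against 3.01% and 4.76% of all genes. The changes were positive for 9 and negative for 10.

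Vmp1, a membrane protein needed for autophagosome formation, had 4532, 3936 and 4414 in marrow and 1315, 2126 and 1978 in fetal liver. It fell by 1.28 ± 0.22 (adjusted p = 0.00747), and was the only call among 9 further genes of the lipid kinase complex and the membrane. Its second probe set had the opposite sign, and with the mean of both the change was -0.36 (adjusted p = 0.551; 0.00469 to 0.551 over all alternatives). Trp53inp1, a p53-induced protein that binds ATG8 homologues, had 499, 552 and 481 in marrow and 113, 119 and 234 in fetal liver. It fell by 1.78 ± 0.41 (adjusted p = 0.0258), and of the 6 arrays only fetal liver replicate 3 could be left out with the call kept (adjusted p = 0.0185 to 0.11 over all alternatives). Among 7 measured transcriptional regulators it was the only call (median change -1.35). Mitf (-1.78 ± 0.54), Foxo1 (-1.35 ± 0.46), Foxo3 (-0.73 ± 0.20, limma adjusted p = 0.0519) and the dim Trp53inp2 (-2.01 ± 0.69) were not called. They too were higher on every marrow array than on any fetal liver array, as were 14.2% of all genes. Tfe3 (0.43 ± 0.44) and Zkscan3 (-0.16 ± 0.38) overlapped. The 14 measured genes of fusion with the lysosome had 0 calls and a median change of -0.01.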

How the data were processed

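RNA of 6 sorted samples (3 per tissue) was measured on Affymetrix arrays, 1 per sample, and each group was taken from the sample label. The deposited values are linear signal intensities, for which the submitters' processing notes name MAS5; its version and settings were not given in the sources used here. That the authors scaled each array is read from the values, whose trimmed means are equal. Signals were converted to log2(signal + 2.87), the offset being their 10th percentile, which understates the changes of dim genes. After removal of controls, 45037 probe sets were left, of which 27022 lay above the 40th percentile of mean log2 signal. Names came from the platform annotation, and each gene took its brightest kept probe set with 1 symbol, giving 11625 genes.

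Tissues were compared with limma 3.58.1 in R 4.3.3 (lmFit, then eBayes with the prior variance following intensity), and p-values were adjusted by Benjamini-Hochberg over all genes. The fit was tested on simulated data. The number of arrays limits the precision. Values of every array are printed for genes past the threshold, the ATG8 homologues and the brightest gene of each role; Sqstm1, Uvrag, Fundc1 and single probe sets were added after their values were seen. The members and lists were chosen with earlier results of these data known. Alternatives are given in the closing section. Figures were drawn with matplotlib 3.10.9.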

Additional observations from a re-analysis of the deposited data

How the results depend on the processing

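The count of autophagy genes higher in fetal liver was 0 under all 18 alternatives, and that of genes higher in bone marrow was 0 under all but 1, with a range of 0 to 1 when each array was left out. The median change of the autophagy genes was 0.10 under median centring and -0.14 to -0.05 with an array left out. The counts of related genes were less stable. Those higher in fetal liver numbered 2 under quantile normalization, with the replicate block and with the Gapdh covariate, 3 with each probe set tested singly, 4 under median centring and with the mean of probe sets, and 1 to 2 with an array left out. Those higher in bone marrow numbered 5 under median centring and without the variance trend, 4 with the mean of probe sets, and 3 to 5 with an array left out. They numbered 10 with the replicate block and without probe sets of the types that can match several genes, and 3 to 10 over all alternatives. The median change of related genes was 0.23 under median centring. Over all genes, 897 under median centring and 166 without the variance trend were higher in fetal liver, and 102 to 320 with an array left out; 317 to 451 were then higher in bone marrow. The median change of all genes was 0.091 under quantile normalization and 0.26 under median centring. The cause of these shifts was not tested.

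The sign of the change turned in at least 1 alternative for 16 of the 36 genes. They included Becn1 (0.092 under median centring, 9.89e-05 with the Gapdh covariate, -0.40 to 0.062 with an array left out), Atg4b (0.086 under median centring, 0.11 with the mean of probe sets, -0.40 to 0.17), Gabarap (-0.0083 under quantile normalization, -0.18 with the covariate, -0.14 to 0.27), Gabarapl1 (0.077 under median centring), Sqstm1 (-0.17 with the mean of probe sets) and Wipi2 (-0.010 to 0.59). The replicate block called 0 autophagy genes. The labels do not say that equal replicate numbers share a source, and deviations of same-numbered arrays correlated across genes at 0.15, -0.02 and 0.08, so the numbers were not taken as pairs. The Gapdh covariate and the single tests of probe sets were chosen after seeing the data. Of the 36 genes, 32 to 36 were measured in each alternative.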
